A study of Mus musculus with 18 samples.

Results

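Plasma cells are the antibody-secreting end stage of the B lineage. The genes that define them were followed here by symbol through sorted bone marrow progenitors of lupus-prone and control mice. The set held 8 genes, Sdc1, Tnfrsf17, Prdm1, Irf4, Xbp1, Mzb1, Derl3 and Tnfrsf13b, and all 8 were present among the 19780 genes of the table for Lin-Sca-1+c-Kit+ cells (LSK) and among the 18428 genes of the table for common myeloid progenitors (CMP). The 8 genes were chosen by name with earlier results of the same samples known, so the differences between groups are given for them as a description and without a p-value. LSK were profiled by RNA sequencing in 12 samples, 3 from each of 4 groups of female mice. F1-P were NZBW/F1 mice (NZB × NZW) of 12 weeks, before disease. F1-L were NZBW/F1 mice of 28 to 36 weeks with lupus, which this strain develops spontaneously. B6-Y and B6-O were C57BL/6 mice of the same ages, 12 weeks and 28 to 36 weeks. CMPs were profiled in 6 samples, 3 of each F1 group, and C57BL/6 CMPs were not analysed here. Within the F1 strain, age and disease cannot be told apart. The labels do not say whether replicates were separate mice, so errors measure the spread between these samples.

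Commitment to the plasma cell fate runs through Irf4 and Prdm1, transcription factors that shut down the B cell programme. Xbp1 then expands the endoplasmic reticulum so that the cell can fold and export antibody. Mzb1 and Derl3 work in that compartment, Mzb1 as a helper of immunoglobulin folding and Derl3 in the removal of misfolded proteins. On the surface, Sdc1 encodes CD138, the marker most used to sort plasma cells, while Tnfrsf17 and Tnfrsf13b encode BCMA and TACI, receptors for the survival ligands BAFF and APRIL. None of these genes is read only in plasma cells. TACI is also carried by mature B cells, and Irf4 and Xbp1 act in several other cell types.

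The LSK sort, as the study describes it, kept cells negative for CD11b, Gr-1, Ter119, B220 and CD16/32 and positive for Sca-1 and c-Kit, and it named no antibody to CD138. Kit was present in all LSK samples, at values of 257 to 657. Ly6a, the gene of Sca-1, lay at 293 to 879 in the 6 F1 samples and at 35.5 to 113 in the 6 B6 samples. In CMPs, Kit lay at 416 to 668 and Ly6a at 1.14 to 6.70, although the sort is printed as Sca-1+ for both populations. The values are CPM on a scaled library size, called value below, and each LSK library held 23772252 to 28493747 reads. In these bulk samples, plasma cells among the sorted cells and transcription of these genes by the progenitors cannot be told apart, nor can fewer cells of a type and less RNA per cell. The share of reads in immunoglobulin (antibody) genes set 3 LSK libraries apart from their groups. It was 19.2% in F1-P replicate 1 against 36.6% and 35.1% in the other 2 F1-P samples, and 4.76% in B6-O replicate 3 against 0.503% and 0.301% in the other 2 B6-O samples. It was 0.918% in B6-Y replicate 1 against 2.86% and 2.85% in the other 2 B6-Y samples. For the 8 genes, counts of calls and ratios of strain means that moved by over 1.5 times without 1 of these libraries, or gained or lost a call, are given both ways.

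Every one of the 8 genes was higher in every F1 LSK sample than in every B6 LSK sample, an order that 9.53% of all 15084 genes tested over the 12 samples shared. For all 8 genes F1-P had the highest group mean, F1-L the next, then B6-Y, and B6-O the lowest. Neighbours within a strain overlapped in 7 of 8 genes, both between F1-P and F1-L and between B6-Y and B6-O. The step between the strains was wide for some genes and narrow for others. The lowest F1 sample was 4.40-fold above the highest B6 sample for Derl3, 3.52-fold for Prdm1 and 3.40-fold for Xbp1. It was 1.21-fold above it for Tnfrsf13b and 1.19-fold for Tnfrsf17, where B6-O replicate 3 was the highest B6 sample.

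**Figure D1:**
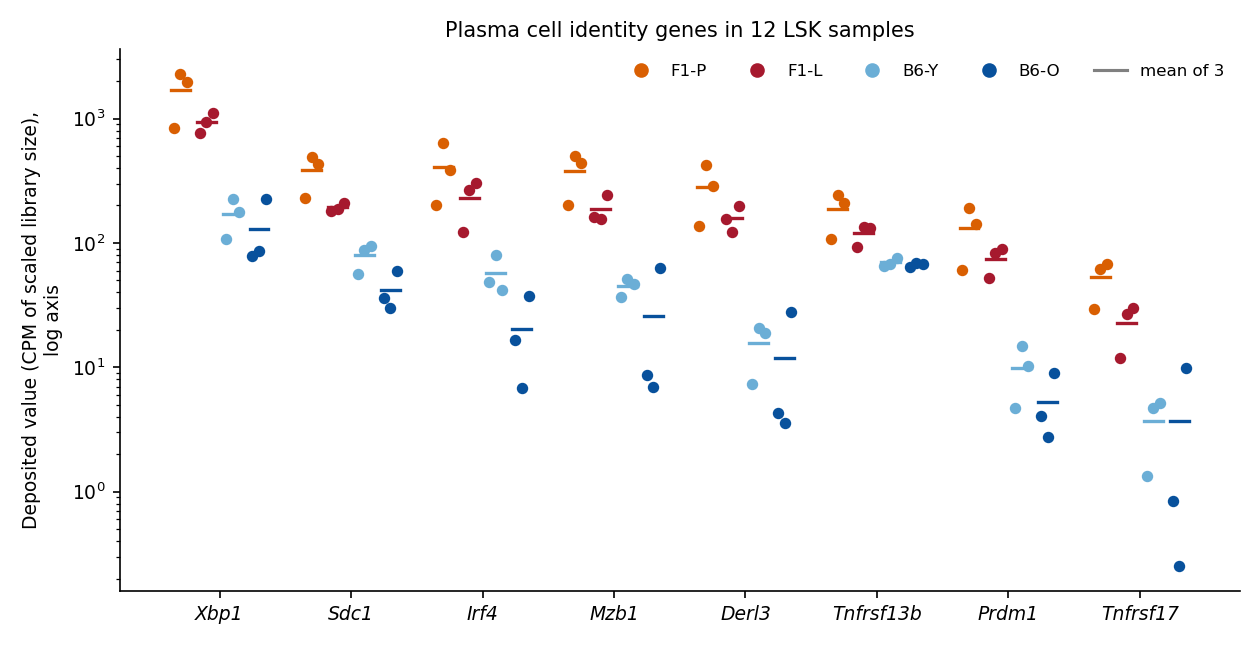
Value of each of the 8 genes (log axis) in the 12 LSK samples, one point per sample in the order of replicates 1 to 3 and a bar at the mean of 3. All orange and red F1 points lie above all blue B6 points of the same gene, with the narrowest step for Tnfrsf17 (11.9 against 9.96) and Tnfrsf13b (92.4 against 76.1).

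In the GENCODE M21 annotation (mm10), Sdc1 lies at chr12:8771323-8793715, Tnfrsf17 at chr16:11313812-11320074, Irf4 at chr13:30749226-30766976 and Xbp1 at chr11:5520659-5525893, all on the + strand and all protein-coding. Derl3 lies at chr10:75893413-75895941 (+ strand), Prdm1 at chr10:44437177-44528501 (- strand) and Tnfrsf13b at chr11:61126755-61149372 (+ strand). The upstream sequences of 7 of the 8 genes were taken from RefSeq promoters (GRCm38.p6), from 250 bases before the start site to the base before it. Mzb1 was not among the entries. Both strands were searched for motifs tied to the plasma cell factors. The endoplasmic reticulum stress element (ERSE), CCAAT and CCACG apart by 9 bases, is the element through which ATF6 and XBP1 act on secretory genes. It occurred in the window of Derl3 alone among the 7 genes and in 37 of 32851 promoters (0.113%). An interferon-stimulated response-like element (ISRE-like, GAAA and GAAA apart by 2 bases), of the type bound by IRF proteins, occurred in Tnfrsf17 alone among the 7 and in 2.98% of promoters. Both windows are printed 5′ to 3′ on the strand of the gene because they hold these matches, which read on the opposite strand. The capitals mark the ERSE pieces in Derl3 (chr10:75893148-75893397, + strand) and the ISRE-like match in Tnfrsf17 (chr16:11313559-11313808, + strand).
Derl3: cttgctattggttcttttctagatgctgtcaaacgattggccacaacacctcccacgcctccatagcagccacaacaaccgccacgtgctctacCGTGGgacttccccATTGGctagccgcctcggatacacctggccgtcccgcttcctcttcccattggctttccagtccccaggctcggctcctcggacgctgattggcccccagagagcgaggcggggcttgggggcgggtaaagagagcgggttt
Tnfrsf17: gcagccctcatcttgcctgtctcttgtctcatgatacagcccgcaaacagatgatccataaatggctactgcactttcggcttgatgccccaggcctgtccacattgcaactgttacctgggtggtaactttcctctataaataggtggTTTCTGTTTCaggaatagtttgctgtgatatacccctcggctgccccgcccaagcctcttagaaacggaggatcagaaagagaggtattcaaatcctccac
The ERSE match lay 156 to 138 bases upstream of the Derl3 start and the ISRE-like match 101 to 92 bases upstream of the Tnfrsf17 start. The pieces of the ERSE were common by themselves. CCACG occurred in 4 of the 7 genes (Derl3, Irf4, Prdm1 and Sdc1) and in 28.3% of promoters. CCAAT occurred in 3 of the 7 (Derl3, Prdm1 and Sdc1) and in 33.8% of promoters. ACGTG, which overlaps CCACG, occurred in Derl3 and in 16.6% of promoters, and TATAAA in Irf4 and Tnfrsf17 and in 12.4%. The unfolded protein response element TGACGTGG (0.563% of promoters), the Blimp-1 core GTGAAAG (3.57%) and the composite ETS-IRF element EICE (2.3%) had no match in the 7 windows. A match is a run of letters and was not tested as a binding site.

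Among the transcription factors, Irf4 had values of 201, 631 and 388 in the F1-P replicates and of 122, 266 and 305 in F1-L. In the controls it had values of 48.7, 80.6 and 41.5 in B6-Y and of 16.7, 6.79 and 37.6 in B6-O. Irf4 was thus the gene with no overlap between the control ages, all 3 B6-O samples lying below all 3 B6-Y samples. Prdm1, which encodes the repressor Blimp-1, had values of 60.3, 193 and 143 in F1-P and of 52.4, 82.8 and 89.1 in F1-L. Its values were 4.74, 14.9 and 10.3 in B6-Y and 4.05, 2.75 and 8.93 in B6-O. The mean of Prdm1 was 13.3-fold higher in F1-P than in B6-Y and 14.3-fold higher in F1-L than in B6-O, or 22.0-fold without B6-O replicate 3.

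Xbp1 was the most abundant of the 8, with values of 835, 2287 and 1983 in F1-P and of 770.1, 937 and 1108 in F1-L. In the controls its values were 107, 227 and 179 in B6-Y and 78.7, 86.3 and 225 in B6-O. The Xbp1 reads of a gene-level count do not separate the spliced, active message from the unspliced one. Derl3, a target of the unfolded protein response, had values of 138, 422 and 288 in F1-P and of 155, 123 and 199 in F1-L. Its control values were 7.31, 20.6 and 18.8 in B6-Y and 4.29, 3.54 and 27.9 in B6-O. Derl3 showed the largest log2 fold change of the 8 between the strains at both ages. Mzb1 had values of 204, 496 and 437 in F1-P and of 162, 156 and 244 in F1-L. Its values were 36.5, 51.3 and 47.0 in B6-Y and 8.68, 6.95 and 62.6 in B6-O. The highest B6-O sample for Mzb1, replicate 3, lay above all B6-Y samples while the other 2 lay below all of them.

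Of the surface proteins, Sdc1 had values of 228, 489 and 432 in F1-P and of 182, 188 and 211 in F1-L. In the controls it had values of 56.7, 87.8 and 95.2 in B6-Y and of 36.1, 30.2 and 59.9 in B6-O. Sdc1 was the one gene of the 8 for which all F1-L samples lay below all F1-P samples. Tnfrsf17 had values of 29.5, 62.3 and 67.9 in F1-P and of 11.9, 26.7 and 29.7 in F1-L. Its values were 1.33, 4.69 and 5.16 in B6-Y and 0.840, 0.253 and 9.96 in B6-O, the lowest of them resting on 8 reads. Across the 12 LSK samples Tnfrsf17 spanned 269-fold from the lowest to the highest sample, and 80.8-fold without the sample of 8 reads, where Derl3 spanned 98.3-fold. Tnfrsf13b spanned the narrowest, 3.83-fold, with values of 108, 245 and 209 in F1-P and of 92.4, 135 and 132 in F1-L. In the controls it was nearly level, at 65.9, 67.3 and 76.1 in B6-Y and at 63.8, 69.5 and 67.6 in B6-O. Over all 12 samples the other 6 genes spanned 16.2-fold (Sdc1) to 119-fold (Derl3).

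Levels of different genes can be set side by side only per length of transcript. Per kilobase of exon, the mean value in F1-P was 524 for Xbp1, 312 for Mzb1, 142 for Derl3 and 101 for Sdc1. It was 83.0 for Irf4, 66.1 for Tnfrsf13b, 65.3 for Tnfrsf17 and 23.7 for Prdm1. In B6-O the same quantity was 40.0 for Xbp1, 23.6 for Tnfrsf13b, 21.5 for Mzb1 and 0.939 for Prdm1. Without B6-O replicate 3 it was 25.4 for Xbp1, 23.5 for Tnfrsf13b and 6.43 for Mzb1. Xbp1 led in both groups, and Tnfrsf13b stood in the second place in B6-O, with or without that sample, and in the sixth in F1-P.

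The comparison of the lupus-prone strain with its age-matched control was made at both ages. A gene was called where the adjusted p of limma over all genes tested was at most 0.05 and the fold change above 1.5. In F1-P against B6-Y, 8 of the 8 genes were called higher, against 10% of all 14380 genes tested. All 8 also had every F1-P sample above every B6-Y sample, against 17.4% of genes. In F1-L against B6-O, 7 of 8 were called higher, all but Tnfrsf17, against 7.84% of 14381 genes. All 8 had every F1-L sample above every B6-O sample, against 17.5%. Since the genes were chosen with these contrasts known, nothing is read from the counts. Without B6-O replicate 3, Tnfrsf17 was called as well and the count was 8 of 8, against 1585 of 14116 genes called higher. Leaving out any other sample of F1-L against B6-O gave 3 to 5 calls, while all 8 log2 fold changes were above 0 each time. Calls over all genes fell too, from 1128 of 14381 called higher with all samples. The count was 3 without F1-L replicate 3 (Sdc1, Prdm1 and Xbp1), against 328 of 13885 genes. It was 4 without F1-L replicate 2, against 401 of 13853. It was 5 without F1-L replicate 1 (415 of 13879 genes), B6-O replicate 1 (628 of 14150) or B6-O replicate 2 (653 of 14171). In F1-P against B6-Y, 1442 of 14380 genes were called higher with all samples, and 1260 of 13901 without F1-P replicate 1. Tnfrsf13b lost its call without F1-P replicate 2 (588 of 13852 genes), F1-P replicate 3 (654 of 13852) or B6-Y replicate 1 (936 of 14085). The other 7 genes were called in every fit without 1 sample. The leave-one-out counts of the gene lists in these comparisons, given below, come from these fits.

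Without B6-O replicate 3 the ratio of the F1-L to the B6-O mean rose from 6.17 to 41.6 for Tnfrsf17, from 7.18 to 24.0 for Mzb1, from 13.3 to 40.6 for Derl3, from 11.3 to 19.7 for Irf4 and from 7.22 to 11.4 for Xbp1. Without F1-P replicate 1 or B6-Y replicate 1, no ratio of the F1-P to the B6-Y mean moved by over 1.5 times.

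The log2 fold change of value + 1 was 4.07 for Derl3 in F1-P against B6-Y (95% interval 2.98 to 5.17) and 4.15 in F1-L against B6-O (2.57 to 5.72). Prdm1 followed with 3.57 (2.45 to 4.69) at the younger age and 3.69 (2.79 to 4.59) at the older. For Irf4 the difference was 2.72 (1.78 to 3.67) at the younger age and 3.63 (2.22 to 5.03) at the older. The estimates of Derl3 and Prdm1, and of Sdc1 below, were thus close at both ages, with wide intervals. Xbp1 differed by 3.25 (2.28 to 4.22) and 3.00 (2.06 to 3.94) on the same scale, in the same order of ages. Mzb1 differed by 2.96 (2.22 to 3.70) and 3.44 (1.69 to 5.19). The interval of Mzb1 at the older age was the wider of the pair, beside B6-O values of 6.95 to 62.6. Sdc1 differed by 2.21 (1.49 to 2.93) and 2.23 (1.66 to 2.81). Tnfrsf17 differed by 3.56 (2.54 to 4.58) and 2.92 (1.04 to 4.80). Tnfrsf13b had the smallest difference of the 8, 1.33 (0.69 to 1.98) and 0.81 (0.41 to 1.21). Without B6-O replicate 3, the older difference was 4.39 for Mzb1, 5.0 for Derl3, 4.20 for Irf4 and 3.87 for Tnfrsf17. Without F1-P replicate 1, the younger difference was 4.52 for Derl3 and 1.69 for Tnfrsf13b.

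**Figure D2:**
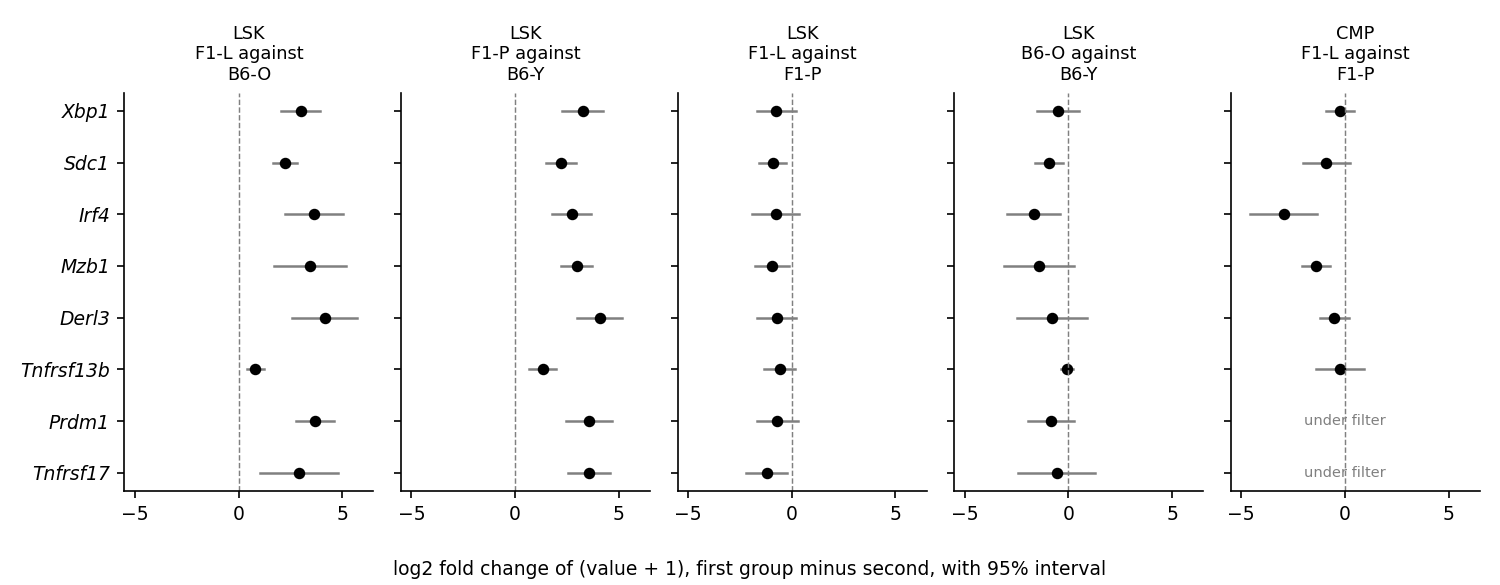
log2 fold change of value + 1 (first group minus second, point) with its 95% interval (line) for the 8 genes in 5 comparisons. The strain comparisons lie to the right of 0 for all 8 genes, Tnfrsf13b closest to 0, and the comparisons of older with younger mice lie to the left of it, with intervals that cross 0 for most genes. In CMPs, Prdm1 and Tnfrsf17 were under the filter on low values.

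The comparison of F1-L with F1-P asks how the genes stood after the onset of disease. None of the 8 was called by limma, against 0.0279% of 14332 genes (4 genes), and all 8 log2 fold changes were below 0, from -1.20 (Tnfrsf17) to -0.58 (Tnfrsf13b). The mean of Sdc1 was 1.98-fold lower in F1-L, with a log2 fold change of -0.91 (95% interval -1.56 to -0.26). All F1-L samples lay below all F1-P samples for Sdc1 alone of the 8, against 7.29% of genes, and edgeR's likelihood ratio test called Sdc1 alone lower, against 1.14% of genes. DESeq2 called 3 of the 8 lower, Sdc1, Tnfrsf17 and Mzb1, against 1.35% of genes. Mzb1 had a difference of -0.94 (-1.77 to -0.11) and Tnfrsf17 of -1.20 (-2.20 to -0.21). The intervals of the other 5 genes included 0. For these 5, a decrease in F1-L of 1.32 to 1.91 on the log2 scale, or an increase of 0.16 to 0.37, would lie at the ends of the intervals. F1-P replicate 1 had the lowest value of its group for 8 of 8 genes. Without it, the median log2 fold change of the 8 was -1.20 instead of -0.76, Sdc1 was called by limma at -1.24, and no other member was called. That fit called 14 of 14206 genes lower. The median was -0.42 without F1-P replicate 2, and -0.66 to -0.93 without any 1 of the other 4 samples, with no call.

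The comparison of B6-O with B6-Y shows how the genes stood with age in the control strain. None of the 8 was called, against 0.0% of 14005 genes, while 927 genes had an unadjusted p under 0.05 and the likelihood ratio test called 114 and DESeq2 207. The 8 log2 fold changes were below 0, from -1.67 for Irf4 (-2.95 to -0.39) to -0.06 for Tnfrsf13b (-0.36 to 0.25). Irf4 alone had all B6-O samples below all B6-Y samples, against 5.57% of genes. B6-O replicate 3 was the highest of its group for 7 of the 8 genes, all but Tnfrsf13b. Without it, Mzb1 was called lower in B6-O at -2.38 (-2.85 to -1.90), against 35 of 13705 genes, and the median of the 8 moved from -0.80 to -1.37. The median was -0.41 without B6-O replicate 2, -0.51 without B6-Y replicate 2, -0.57 without B6-O replicate 1, -0.67 without B6-Y replicate 3 and -1.19 without B6-Y replicate 1, with no call in any of these.

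Whether the age difference itself differed between the strains was fitted as an interaction over the 12 samples. None of the 8 genes was called, against 0.0% of 15084 genes, with 591 genes at an unadjusted p under 0.05 and 10 called by the likelihood ratio test and 29 by DESeq2. The interaction on the log2 scale was 0.90 for Irf4 (-0.86 to 2.67), where the B6 difference was the larger, and -0.64 for Tnfrsf17 (-2.85 to 1.58). For Sdc1 it was 0.03 (-0.93 to 0.98). The intervals of all 8 included 0 and were wide.

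Most of the 8 genes stood high and low together within groups. In F1-L, replicate 3 had the highest value for 7 of 8 genes and replicate 1 the lowest for 6. In B6-Y, replicate 1 was the lowest for 7 of 8. Pairs of the 8 genes had a median Pearson correlation of 0.914 over the 6 F1 samples (28 pairs of log2 values, 0.759 to 0.995) and of 0.852 over the 6 B6 samples. The lowest pair in B6 was Irf4 and Tnfrsf13b, at 0.0579. Each set of 6 samples pools both ages of a strain, so the correlations mix differences between groups with spread within them. These samples share libraries and scaling across genes, and the correlations are a description.

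The immunoglobulin share of reads was 16.8%, 21.6% and 25.6% in F1-L replicates 1 to 3, and 0.918%, 2.86% and 2.85% in B6-Y. In each of the 4 groups the sample with the lowest share was also the one with the lowest value for most of the 8 genes. The shares of the F1 and B6 samples did not overlap at either age (exact permutation test, two-sided, p = 0.1 in each comparison, the smallest that 3 against 3 samples allow), while F1-L and F1-P overlapped (p = 0.3). Ighm, the heavy chain of IgM, had values of 105417, 263339 and 230281 in F1-P and of 84614, 121346 and 147457 in F1-L. In the controls it had values of 3842, 11494 and 11358 in B6-Y and of 1791, 1004 and 17945 in B6-O. Igkc, the kappa light chain, had values of 43644, 103706 and 103934 in F1-P and of 1523, 4717 and 5837 in B6-Y. Both separated the strains, with B6-O replicate 3 the highest B6 sample for Ighm.

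**Figure D3:**
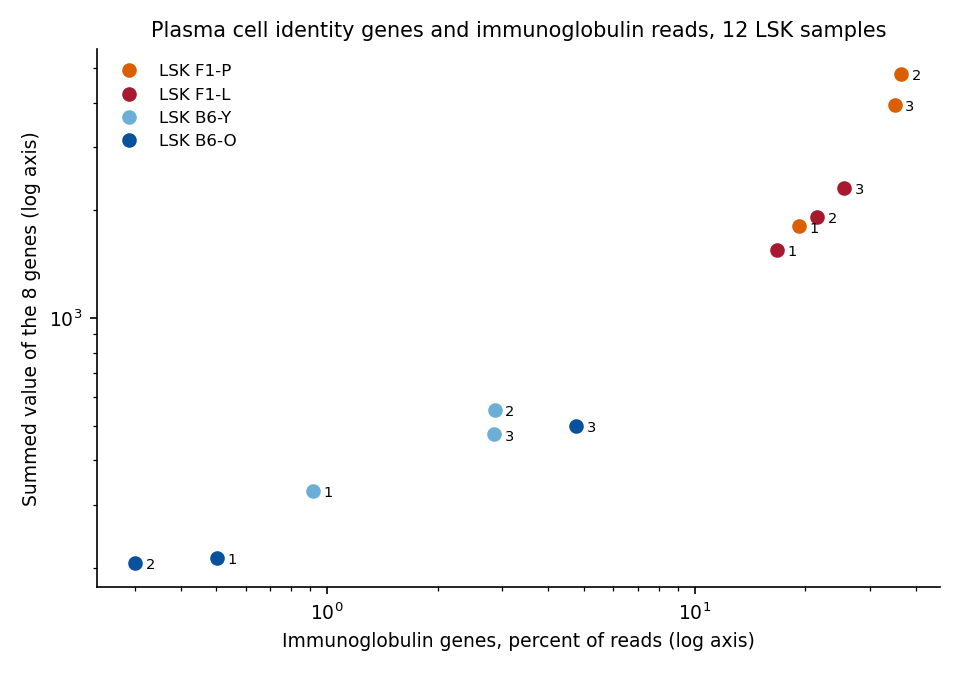
Summed value of the 8 genes against the percent of reads in immunoglobulin genes in the 12 LSK samples (both axes log, replicate number beside each point). The F1 samples lie at 16.8% to 36.6% and sums of 1548 to 4824, the B6 samples at 0.301% to 4.76% and sums of 206 to 554, with B6-O replicate 3 apart from the other B6-O samples and F1-P replicate 1 among the F1-L samples.

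Over the 12 LSK samples, the genes outside the immunoglobulins whose log2 values ran most like the mean of the 8 were Pls1 (r = 0.997), Tent5c and Gpr55 (both 0.995), then Ube2j1, Tmem248, Rasgrp3, Txndc5, Ctss, Eaf2 and Bmp6, the last at 0.991. The strains form separate clusters in these values, so the likeness was also taken within the 6 F1 samples. There Ube2j1 came first (r = 0.998), followed by Efemp2, Gm35035, Rexo2 and Matn2. Efemp2 and Gm35035 lay near the filter value of 1, with means of 1.63 and 0.755 in F1-L and of 2.69 and 1.33 in F1-P. Gm35035 had means of 1.42 in B6-O and 1.15 in B6-Y, and so did not separate the strains as the 8 genes did. Ube2j1, an enzyme of endoplasmic reticulum-associated degradation, was the one gene in both sets. Of the 100 most alike genes over the 12 samples, 17 were immunoglobulin genes, out of 246 immunoglobulin genes among the 15076 compared. Within the 6 F1 samples 3 of the first 100 were immunoglobulin genes, and within the 6 B6 samples 23. Jchain, which joins IgM pentamers, ranked 39 over the 12 samples, 302 within F1 and 24 within B6. Ly6a ranked 83 over the 12 samples (r = 0.976), 41 within F1 (0.986) and 1230 within B6 (0.763). Whether Ly6a, a gate gene, played a part in the differences of the 8 was not tested.

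Other genes of the plasma cell programme, listed by symbol, were read from the same fits over all genes. Of 12 tested plasma cell genes outside the 8, 11 were called higher in F1-P than in B6-Y and 11 in F1-L than in B6-O, against 10% and 7.84% of all genes. Their median log2 fold changes were 2.81 and 2.87, against -0.04 and -0.03 for all genes. Without F1-P replicate 1 the count in F1-P against B6-Y was again 11, and without B6-O replicate 3 that in F1-L against B6-O was 12. The latter count was 6 without any 1 F1-L sample, 7 without B6-O replicate 1 and 9 without B6-O replicate 2. Jchain had values of 12939, 33325 and 30254 in F1-P and of 525, 1501 and 1489 in B6-Y. In the older mice it had values of 8286, 8063 and 10851 in F1-L and of 247, 116 and 2098 in B6-O. Jchain was thus separated between the strains at both ages, with a log2 fold change of 4.48 ± 0.61 (SE) in the younger mice and 4.51 ± 0.98 in the older. Among the others, Pou2af1, a coactivator of immunoglobulin transcription, differed by 4.26 ± 0.68 in F1-L against B6-O. The genes not called were Cd28 in F1-P against B6-Y, at 0.76 ± 0.27, and Fkbp11 in F1-L against B6-O, at 1.13 ± 0.36. In F1-L against F1-P limma called none of the 12. The likelihood ratio test called 1 lower, Jchain, against 1.14% of genes, with all F1-L samples below all F1-P samples. There 11 of 12 log2 fold changes were below 0 and their median was -0.72.

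Of 22 genes of the XBP1 pathway and the secretory machinery, 21 were called higher in F1-P than in B6-Y (median log2 fold change 1.61), against 10% of all genes. In F1-L against B6-O 13 were called higher (median 1.05), against 7.84%. The 13 became 20 without B6-O replicate 3, and 7 to 10 without any 1 of the other 5 samples, the 7 without F1-L replicate 3. Creld2, a chaperone partner of the stress response, had values of 209, 525 and 364 in F1-P and of 28.9, 45.0 and 62.4 in B6-Y. Edem1, which extracts misfolded glycoproteins, had values of 419, 1040 and 909 in F1-P and of 106, 169 and 106 in B6-Y. Both were called at both ages, Creld2 at 2.95 ± 0.37 and 2.29 ± 0.48, Edem1 at 2.56 ± 0.35 and 2.32 ± 0.22 in the younger and older mice. Hspa5, the main chaperone of the compartment, was called at the younger age (1.25 ± 0.29) and had 0.95 ± 0.45 at the older, where B6-O replicate 3 stood at 1295 against 453 and 450 in the other B6-O samples. In F1-L against F1-P none of the 22 was called by limma or the likelihood ratio test, 21 lay below 0 and the median was -0.53.

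Of 13 genes of the BAFF and APRIL pathway beyond the receptors Tnfrsf17 and Tnfrsf13b, 3 were called higher in F1-P than in B6-Y, where 10% of all genes were, or 1 without B6-Y replicate 1. In F1-L against B6-O, 1 of the 13 was called, a share near the 7.84% of all genes, or 5 without B6-O replicate 3. Tnfrsf13c, the BAFF receptor, was called at both ages, with log2 fold changes of 1.45 ± 0.20 and 1.53 ± 0.28. Traf1 (1.59 ± 0.39) and the survival gene Bcl2l1 (0.74 ± 0.17) were called in the younger mice. Tnfsf13, which encodes APRIL, had values of 3.28, 4.17 and 3.41 in F1-L and of 1.2, 1.40 and 2.28 in F1-P, without overlap (log2 fold change 0.83, adjusted p = 0.19, limma). Tnfsf13b, which encodes BAFF, had values of 12.9, 5.69 and 2.07 in F1-L and of 0.742, 1.28 and 2.19 in F1-P, a difference that was not called (adjusted p = 0.31, limma). The likelihood ratio test called 2 of the 13 genes higher in F1-L, against 494 of 14332 genes. Tnfsf13 and Tnfsf13b were the only 2 of the 13 with log2 fold changes above 0 in F1-L against F1-P. The other 11 lay below 0, 3 of them at an unadjusted p under 0.05 (limma), and the median of the list was -0.13.

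Listed genes of B cells gave calls in both directions. Of 14 listed and tested in F1-L against B6-O, Cd79a alone was called, higher at 2.07 ± 0.47, a share near the 7.84% of all genes. Without B6-O replicate 3, 5 of 14 were called. In F1-P against B6-Y, 12 were tested, beside 10% of all genes called higher and 889 of 14380 called lower. Cd79a (1.21 ± 0.23) and Cd79b (0.97 ± 0.23), which encode the signalling chains of the B cell receptor, were called higher. Spib (-1.03 ± 0.28) and Bcl6 (-0.84 ± 0.24), transcription factors of the B cell and germinal centre stages, were called lower, and neither was called without F1-P replicate 1 or without B6-Y replicate 1, the latter leaving 1 gene of the list called higher. In F1-L against F1-P all 8 markers of early B cells (pro-B and pre-B cells) had log2 fold changes below 0, as the plasma cell genes did, and their median was -1.52. An unadjusted p under 0.05 was reached by 7 of them, limma called none, and the likelihood ratio test called 4 lower, against 1.14% of genes. Dntt, the enzyme that adds bases at immunoglobulin joints, had values of 1375, 464 and 290.4 in F1-P and of 197, 244 and 197 in F1-L. Within F1-P the order of replicates differed. The early B cell markers summed to 2015, 881 and 556 in replicates 1 to 3, and the 8 plasma cell genes to 1804, 4824 and 3948. The part of early B cells in the differences of the 8 plasma cell genes was not tested. Early B cell markers gave no call in F1-P against B6-Y (1 higher without B6-Y replicate 1, 1 lower without F1-P replicate 1), and in F1-L against B6-O Blnk was called higher (1.25 ± 0.19) and Dntt lower (-1.74 ± 0.20).

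Markers of other cells moved in the same comparisons. Of 8 T and NK cell markers, 6 were called higher in F1-P than in B6-Y and 3 in F1-L than in B6-O, against 10% and 7.84% of all genes. The counts were 5 without F1-P replicate 1 and 4 without B6-O replicate 3. Ncr1, an NK cell receptor, had values of 55.5, 84.9 and 77.0 in F1-P and of 3.41, 4.86 and 3.06 in B6-Y. The summed values of the 8 T and NK markers ran from 178 to 453 over the F1 samples and from 102 to 162 over the B6 samples. Of 12 progenitor genes, Ly6a was called higher in F1 at both ages, and Cd34, Hlf and Meis1 were called lower at both ages. In F1-P against B6-Y, 4 of the 12 were called lower, against 889 of 14380 genes, and 2 without B6-Y replicate 1, against 349 of 14085. In F1-L against B6-O, 3 of the 12 were called lower, against 539 of 14381. The summed value of the 11 neutrophil markers was 1983 to 12373 in F1-L and 301 to 1281 in F1-P. All 11 had an unadjusted p under 0.05 and none was called by limma, Lcn2 and Ngp among them at log2 fold changes of 3.20 and 3.25. The likelihood ratio test called 11 of 11 higher in F1-L, against 494 of 14332 genes. In B6-O, replicate 3 had a neutrophil sum of 10719 against 1736 and 832 in the other 2 samples. The part of these cells in the differences of the 8 genes was not tested.

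**Figure D4:**
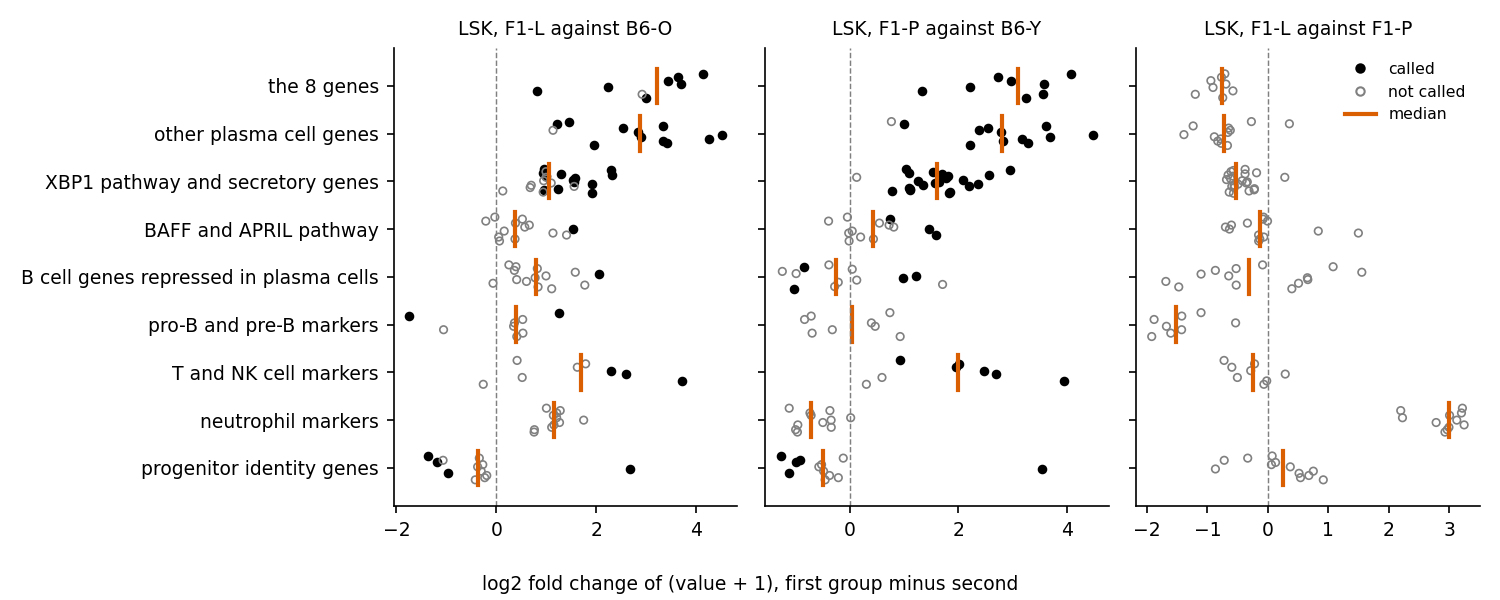
log2 fold change of value + 1 of each tested gene of 9 lists in 3 LSK comparisons (filled points called, open points not called, bar at the list median). The 8 genes, the other plasma cell genes and the XBP1 pathway genes lie to the right of 0 in both strain comparisons, with medians of 3.22, 2.87 and 1.05 in F1-L against B6-O, and to the left of 0 in F1-L against F1-P, except for 1 gene of each of the latter 2 lists.

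The CMP values were normalised apart from those of the LSK, and 6 of the 8 genes passed the filter on low values. Tnfrsf17, Prdm1, Irf4, Mzb1 and Derl3 had few reads in at least 1 group. Xbp1, Tnfrsf13b and Sdc1 had 118 or more reads in every CMP sample. Immunoglobulin genes held 0.0152% to 0.255% of the CMP reads. Tnfrsf17 had 2, 1 and 0 reads in the F1-L replicates and 1, 7 and 6 in F1-P. Prdm1 had 20, 6 and 17 reads in F1-L and 7, 40 and 49 in F1-P. Neither gene was tested, and differences between the groups were not detectable for Tnfrsf17 at this depth. None of the 6 tested genes was called by limma, against 0.00774% of 12926 genes (1 gene), and all 6 log2 fold changes were below 0.

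Irf4 showed the widest difference in CMPs. Its values were 0.864, 0.413 and 1.49 in F1-L, resting on 8 to 30 reads, and 3.89, 26.7 and 21.3 in F1-P, resting on 81 to 605 reads. All F1-L samples lay below all F1-P samples, with an 18.7-fold lower mean and a log2 fold change of value + 1 of -2.95 (95% interval -4.55 to -1.35). Mzb1 had values of 0.773, 0.671 and 1.04 in F1-L and of 2.21, 5.30 and 4.54 in F1-P, again without overlap, and a log2 fold change of -1.40 (-2.07 to -0.73). Irf4 and Mzb1 were the 2 genes of the 8 without overlap, against 6.57% of genes with every F1-L sample below, and the likelihood ratio test called both lower, against 2.12% of genes. Sdc1, at 14.2, 6.09 and 12.7 in F1-L and 10.7, 21.5 and 34.7 in F1-P, overlapped between the groups.

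Xbp1 was the most abundant of the 8 in CMPs also, with values of 83.8, 54.3 and 77.2 in F1-L and of 57, 98.1 and 104 in F1-P, a difference of -0.24 (-0.89 to 0.42). Tnfrsf13b lay at 13.1 to 36.3 in F1-L and at 17.7 to 47.8 in F1-P, and Derl3 at 0.413 to 1.05 and 0.672 to 2.27. These groups overlapped for all 3 genes. CMP F1-P replicate 1 was the lowest of its group for 8 of 8 genes. Without it, limma called Irf4 (-3.73) and Mzb1 (-1.70) lower in F1-L, and the number of genes called over the table went from 1 to 434.

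B cell and neutrophil markers differed between the CMP groups in the same direction as Irf4, but not every list did. Of 12 progenitor genes, 8 had log2 fold changes above 0 and 4 below, with a median of 0.36 and none called. Of 6 erythroid markers, 2 lay above 0 and 4 below. Of 12 tested B cell genes, 10 had an unadjusted p under 0.05 and none was called by limma. The likelihood ratio test called 8 of the 12 lower, against 2.12% of genes. Without F1-P replicate 1 limma called 10 of 11 lower, against 396 of 12774 genes. Pax5, the factor of B cell identity, had values of 1.36, 1.70 and 2.99 in F1-L and of 9.27, 34.9 and 32.5 in F1-P. Replicate 1 was the lowest of F1-P for Pax5, as it was for Irf4. The summed neutrophil markers were 85.8, 64.2 and 431 in F1-L and 315, 6453 and 8442 in F1-P. The part of B cells and neutrophils in the values of Irf4 and Mzb1 was not tested.

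**Figure D5:**
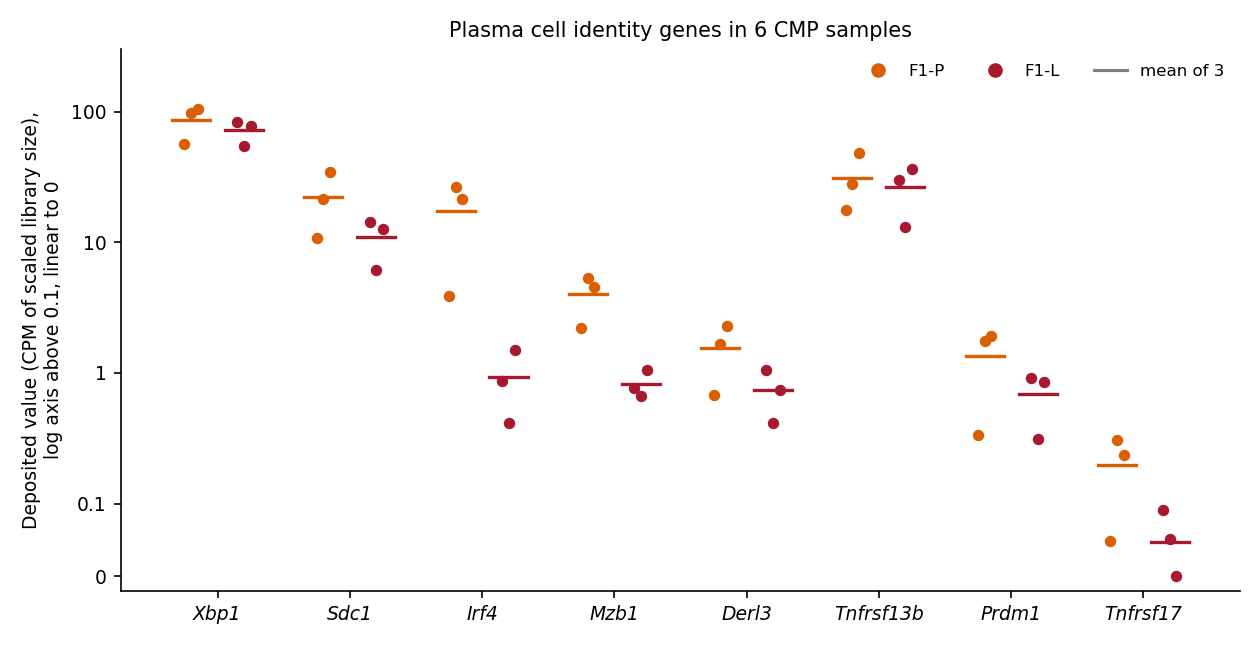
Value of the 8 genes in the 6 CMP samples (log axis above 0.1, linear from there to 0), one point per sample in the order of replicates 1 to 3 and a bar at the mean of 3. The groups are separate for Irf4 (0.413 to 1.49 in F1-L, 3.89 to 26.7 in F1-P) and Mzb1, and overlap for the other 6 genes.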

How the data were processed

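Gene expression was measured in 12 LSK and 6 CMP samples. The authors sequenced single-end mRNA libraries, aligned the reads to mm10 with STAR, used HTSeq for the counts of each gene, and deposited CPM on a scaled library size, a signal on which samples of a table can be compared. Column sums were 832403 to 1387186 in LSK and 967456 to 1033223 in CMPs. In LSK and in CMPs, 100.0% of values were whole multiples of 1 read, within 0.01 of a read, and these reads (20001328 to 24761060 per CMP sample) served for the count tests. Genes were matched to GENCODE M21 (19770 LSK and 18421 CMP genes). All columns mapped to a sample, and no 2 libraries of the same group agreed within sampling noise. Libraries of different groups were not compared in this way.

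Genes that reached a value of 1 in 3 or more of the samples compared entered limma 3.58.1 (trend) in R 4.3.3 on log2(value + 1), with Benjamini-Hochberg adjustment. Fold changes on this scale understate the change of low genes. The design had assumed plain CPM. Alternatives were another pseudocount of 0.1, other filters and scalings, a replicate block, all 12 LSK samples in one fit, leaving out each replicate, and edgeR 4.0.16 and DESeq2 1.42.0 on the reads. The tests were checked on simulated data. Comparisons share groups (F1-L and F1-P each enter more than one). The 8 genes and the gene lists were chosen with earlier results of these data known. Genes named from a list are up to 4 with the largest change among those called, or up to 2 with the smallest p, and genes of most similar pattern are the first 10 over 12 samples and the first 5 within F1. Some genes that met the rule are left out, and Cd28, Fkbp11, Hspa5, Tnfsf13b, Pax5, Ube2j1 and the gate genes are named with their values seen. Python 3.11.15 with pandas 2.3.3 and scipy 1.17.1 was used for the rest.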

Additional observations from a re-analysis of the deposited data

How the results depend on the processing

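The counts of called genes moved by over 1.5 times under several alternatives. In F1-L against F1-P, limma called 4 genes, against 2 with median of ratios scaling, 0 with a replicate block (1830 genes had an unadjusted p under 0.05 in the fit without the block), 26 with all 12 LSK samples in one fit, 657 with the likelihood ratio test of edgeR, and 734 when DESeq2 was used. In F1-L against B6-O, 1667 genes were called, and 978 with a mean value of at least 5, where fewer genes were tested. In B6-O against B6-Y, limma called 0 genes (927 at an unadjusted p under 0.05), against 1 with TMM scaling without immunoglobulin genes, 15 with all 12 samples, 114 with the likelihood ratio test and 207 with DESeq2. In CMPs limma called 1 gene, against 0 with a mean value of at least 5, 0 with the block, 308 with the likelihood ratio test and 351 with DESeq2 (1267 at an unadjusted p under 0.05). The interaction gave 0 with limma, 10 with the likelihood ratio test and 29 with DESeq2. Leaving out 1 sample gave 0 to 25 genes in F1-L against F1-P, 448 to 2285 in F1-L against B6-O, 927 to 2229 in F1-P against B6-Y, 0 to 48 in B6-O against B6-Y, 0 to 434 in CMPs and 0 to 1 for the interaction. The cause of these differences was not tested. Leave-one-out counts of the gene lists, and ratios and spans without single samples, were added after the data were seen. Same-numbered samples of different groups had correlations of -0.454 to 0.622. With 3 samples per group these cannot decide whether the numbers pair samples. With the block, calls went from 2331 to 2787 in F1-P against B6-Y and from 1667 to 1380 in F1-L against B6-O. In F1-L against B6-O, all 8 genes were called with the block, 7 (not Tnfrsf13b) with all 12 samples, and 6 with edgeR's quasi-likelihood test, which called neither Tnfrsf17 nor Mzb1. Of 14381 genes, those fits called 1013, 1285 and 938 higher. Of the log2 fold changes of the 8 genes in the LSK group comparisons, each stayed within 1 SD between samples of the reported one under the alternatives. Leaving out 1 of 3 samples moves a group mean by less than 1 SD of that group, so for those fits the measure says little. In B6-O against B6-Y, values without 1 sample ran from -1.52 to 0.05 for Tnfrsf17 (-0.56 with all samples, SE 0.80). For Mzb1 they ran from -2.38 to -0.87 (-1.42 with all samples, SE 0.72). The signs that changed were those of Tnfrsf13b (0.01 without B6-Y replicate 3) and Tnfrsf17 (0.05 without B6-O replicate 2) in B6-O against B6-Y. The interaction of the 8 genes changed sign in 30 of 168 values. In CMPs 75 of 85 values stayed within 1 SD, Irf4 reaching -4.26 with edgeR, and Tnfrsf13b changed sign without F1-L replicate 2 (0.19) and without F1-P replicate 3 (0.12). The low reads of Tnfrsf17 in B6-O and of 5 genes in CMPs limit those values.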
